A study of Mus musculus with 22 samples.

Results

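Polycomb group genes were followed in mouse embryonic fibroblasts (primary embryo cells, MEFs) on Affymetrix mouse whole-genome arrays. The 10 genes were the methyltransferases Ezh1 and Ezh2, their partners Eed, Suz12 and Jarid2, and the Polycomb repressive complex 1 genes Bmi1, Ring1, Rnf2, Cbx7 and Cbx8. They were taken by name, with every probe set (the probes on the array that are read together for 1 transcript) that the platform annotation assigns to 1 gene, which gave 29 of 34945 such probe sets and 10 of 18193 genes. Ezh1 had been picked for its higher level in double than in Wt1-null arrays, a difference chosen by its measured values, so that contrast is described here by its values, and no test of a member in it is read. In each comparison the probe set of a gene with the highest mean level stands for it, and its other probe sets are given beside it.

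The 22 arrays fell into 4 groups, all of RNA taken 7 days after adenoviral infection. The 5 control arrays came from cells that the labels call wild type, infected with a virus for GFP. The oncogene arrays (n = 5) came from cells with a mutant oncogene allele that Cre recombinase switches on, the Wt1-null arrays (n = 5) from Wt1f/f cells, in which Cre deletes the transcription factor gene Wt1, and the double arrays (n = 7) from cells with both changes. Every array outside the control group had received the Cre virus, so the genotype and the virus cannot be told apart in any comparison with control. All 7 double arrays lay in 1 run of consecutive accession numbers, a possible batch, which held none of the Wt1-null arrays. Genotype and run are therefore not separated in double against Wt1-null. The Wt1-null arrays shared a run with only 1 control array and 1 oncogene array. The labels name replicates but not embryos or cultures, and p-values therefore reflect only how these arrays scatter, which may in part be technical. Levels are log2 values normalized by RMA, and a difference of 1 is a 2-fold change.

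Polycomb proteins hold developmental genes silent in 2 kinds of complex. Polycomb repressive complex 2 (PRC2) methylates histone H3 at lysine 27 through Ezh1 or Ezh2 and needs Eed and Suz12 for this activity, while Jarid2 helps to bring it to chromatin. Polycomb repressive complex 1 (PRC1) attaches ubiquitin to histone H2A through the RING proteins Ring1 and Rnf2, joined to Bmi1, and Cbx proteins such as Cbx7 and Cbx8 bind the methylated histone. In fibroblasts, Ezh2 is known as a gene of dividing cells, Ezh1 as the form that persists in resting cells, and Bmi1, Cbx7 and Cbx8 as repressors of the cell cycle inhibitor locus Cdkn2a.

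The promoters of 4 of these genes are shown because Ezh1 is the gene that passed the test in double against control, and Suz12, Bmi1 and Rnf2 were low together in the same 2 arrays. Ezh2 was low in both arrays too, but its window overlaps annotated genes and is not shown. Each sequence is the 250 bases before the RefSeq start of the gene, 5′ to 3′ on the gene's strand, in assembly GRCm38.p6. Ezh1 (chr11:101226464-101226713, minus strand), Suz12 (chr11:79992856-79993105, plus strand), Bmi1 (chr2:18676768-18677017, plus strand) and Rnf2 (chr1:151500992-151501241, minus strand) are given in that order, and no annotated gene overlaps these windows. On the same assembly Ezh2 lies on chromosome 6, Eed on 7, Cbx8 on 11, Jarid2 on 13, Cbx7 on 15 and Ring1 on 17. Capitals mark the letters TTTCGCGC, TTTGGCGC, TTTCCCGC and TTTGCCGC, which are forms of the binding site of E2F cell cycle factors, and CCAAT, the site of NF-Y, on either strand.
Ezh1: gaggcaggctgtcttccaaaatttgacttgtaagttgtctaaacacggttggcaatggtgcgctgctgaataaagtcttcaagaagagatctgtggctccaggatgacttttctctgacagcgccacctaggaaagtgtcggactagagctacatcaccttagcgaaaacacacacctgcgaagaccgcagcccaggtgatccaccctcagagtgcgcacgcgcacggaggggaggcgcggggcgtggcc
Suz12: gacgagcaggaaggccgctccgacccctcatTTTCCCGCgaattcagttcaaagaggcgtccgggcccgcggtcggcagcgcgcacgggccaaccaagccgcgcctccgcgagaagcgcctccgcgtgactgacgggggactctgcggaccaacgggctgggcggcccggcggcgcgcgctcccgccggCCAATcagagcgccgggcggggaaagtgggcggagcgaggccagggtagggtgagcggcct
Bmi1: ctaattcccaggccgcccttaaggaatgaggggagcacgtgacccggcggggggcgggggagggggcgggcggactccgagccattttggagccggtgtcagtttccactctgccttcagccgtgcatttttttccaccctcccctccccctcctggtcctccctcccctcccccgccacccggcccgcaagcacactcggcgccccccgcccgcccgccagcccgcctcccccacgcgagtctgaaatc
Rnf2: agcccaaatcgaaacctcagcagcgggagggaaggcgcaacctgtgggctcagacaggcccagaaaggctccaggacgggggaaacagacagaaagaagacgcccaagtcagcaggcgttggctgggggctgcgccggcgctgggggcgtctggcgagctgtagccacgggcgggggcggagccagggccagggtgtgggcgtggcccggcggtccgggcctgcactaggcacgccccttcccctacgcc

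Only the Suz12 window of these 4 held any of the letters searched, with TTTCCCGC at position -219 and CCAAT at -61 relative to the start of the gene. Of 32851 mouse promoter windows of this length, 1.86% held at least 1 of the E2F forms and 33.8% held CCAAT. Among the windows of the other members, that of Ezh2 held 3 copies of CCAAT and none of the E2F forms, that of Cbx8 held 2 copies of CCAAT, and those of Cbx7 and Jarid2 held 1 each, Jarid2 in the first of its 2 windows. The windows of Ezh2 and Cbx7 and the second of Jarid2 overlapped annotated genes, and that of Cbx7 lay inside the annotated span of Cbx7. No match was found in the windows of Eed and Ring1. The Suz12, Bmi1 and Rnf2 windows were 73.6%, 70.4% and 70.4% G and C with 37, 21 and 20 CpG pairs, and the Ezh1 window was 55.2% G and C with 14, against medians of 52.4% and 6 over all windows. A match is a run of letters, not a measured binding site.

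The cells carried the collagen and vimentin RNA of fibroblasts, with Col1a1 at a mean of 14.25 and Vim at 14.83, and all 10 fibroblast markers were above background. Among markers of other cells, 2 of 8 for macrophages and leukocytes, 2 of 5 for endothelium and 2 of 6 for epithelium lay at background. Ptprc at 4.52, Pecam1 at 4.62 and Cdh1 at 4.03 were among them. Of the muscle markers 0 of 5 lay at background, and of the neural markers 0 of 5. Many markers of other cells were well above it, such as Csf1r at 7.30, Kdr at 7.17, Epcam at 8.40 and Krt19 at 8.79. The muscle marker Acta1 read 11.05 and the neural marker Tubb3 7.51, and Krt18 ran from 5.25 to 11.08. Wt1 itself read 4.38 to 4.59 in the group means, within the 3.65 to 5.06 read for 3 Y-linked genes in 9 arrays that are high in Xist (transcribed from the inactive X chromosome), so its deletion could not be seen. That range was the background here, and 25 of the 29 probe sets of the Polycomb genes lay above it. By group, the arrays high in Xist numbered 5 of 7 for double, 2 of 5 for control, 2 of 5 for Wt1-null and 0 of 5 for oncogene. Oncogene replicate 4 and double replicate 4 stood apart, with 11.1% and 19.3% of genes more than 1 from the mean of the other arrays of their group, against 0.214% to 7.16% in the other 20 arrays. Their probe sets for the control transcript pyruvate carboxylase read 2.73 and 2.97 higher at the 3′ than at the 5′ end, against 0.85 to 2.27 elsewhere, whereas those for actin and Gapdh lay within the range of the other arrays. Wt1-null replicate 2 and double replicate 2 were nearly identical (r = 0.998, SD of the difference over genes 0.152), the next closest arrays of different groups having an SD of 0.285, and Wt1-null replicates 3 and 4 were almost as close (SD 0.162).

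Ezh1 was highest in double arrays, intermediate in oncogene arrays and lowest in Wt1-null and control arrays. The control arrays 1 to 5 read 8.02, 8.05, 8.13, 7.61 and 8.51 on the log2 scale. Oncogene arrays 1, 3, 4, 5 and 6 read 8.12, 8.63, 9.30, 8.43 and 8.46, and Wt1-null arrays 1 to 5 read 7.94, 8.06, 8.03, 8.06 and 7.90. The 7 double arrays ran from 8.50 to 9.42 with a median of 9.00. Control and Wt1-null arrays overlapped, as did oncogene arrays with both control and double arrays, so that neighbours in this order are not told apart by their spread. Every double array and every oncogene array was above every Wt1-null array, while double and control arrays met at their edges, the lowest double array at 8.502 and the highest control array at 8.509. Double arrays averaged 8.98 ± 0.36 (SD, n = 7), oncogene arrays 8.59 ± 0.44 (SD, n = 5), control arrays 8.06 ± 0.32 (SD, n = 5) and Wt1-null arrays 8.00 ± 0.07 (SD, n = 5).

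**Figure D1:**
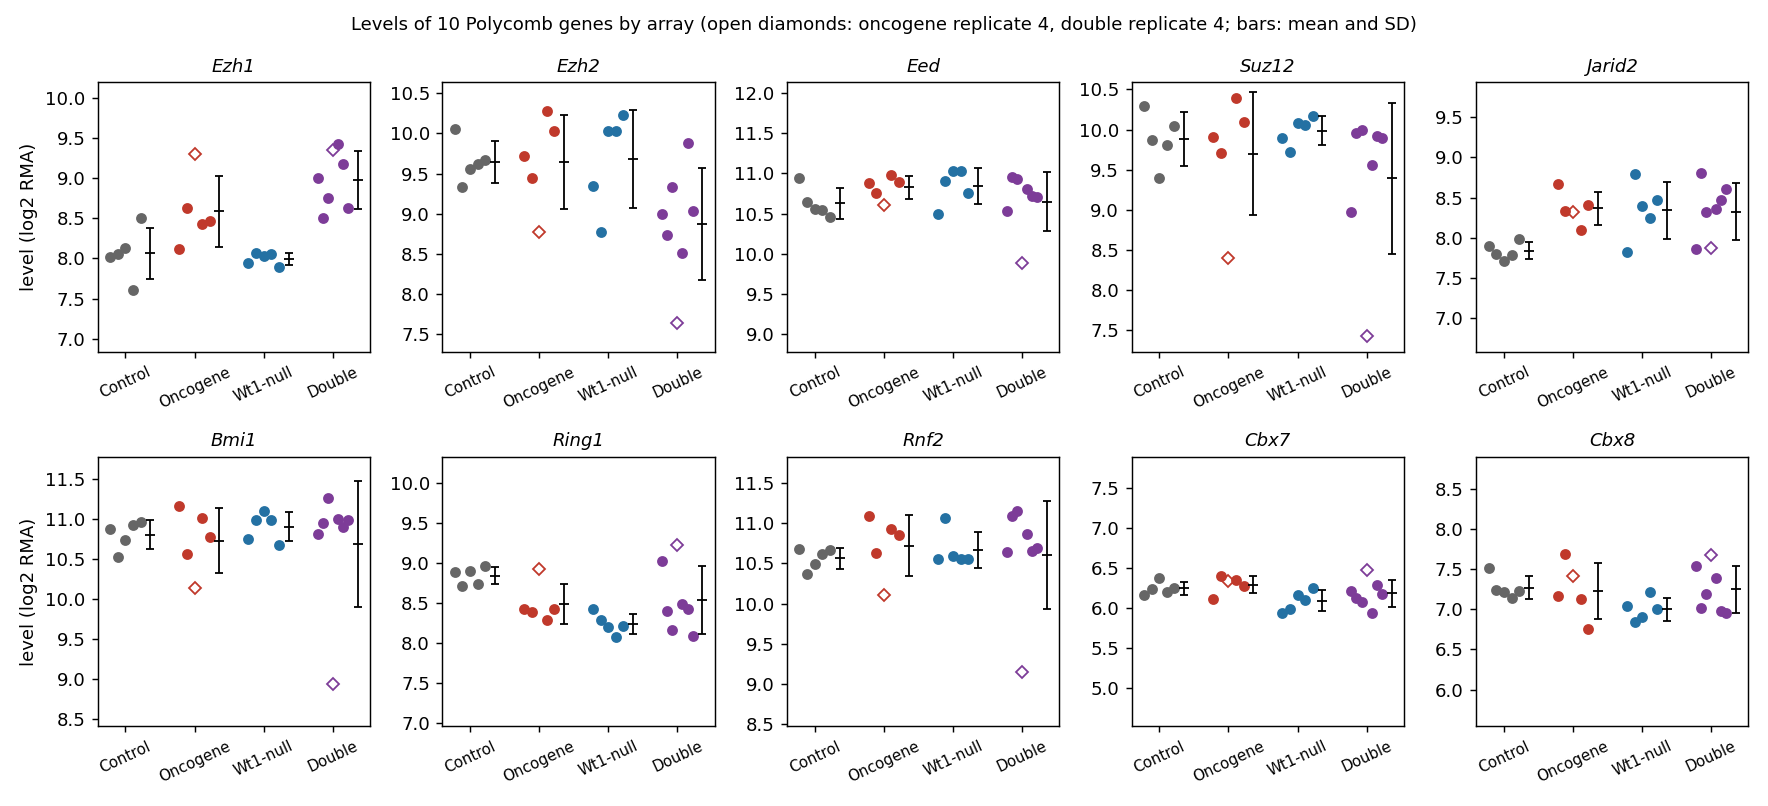
Levels (log2 RMA values, vertical axis) of the 10 Polycomb genes in each of the 22 arrays by group, 1 point an array, with the group mean and SD as a bar; every panel spans the same height, and open diamonds are oncogene replicate 4 and double replicate 4. Ezh1 is at 8.50 to 9.42 in double and 7.90 to 8.06 in Wt1-null arrays, and the lowest points of Suz12, Bmi1 and Rnf2 are double replicate 4.

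Ezh1 rose in double against control arrays by 0.91 ± 0.19 (SE) on the log2 scale, which is 1.88-fold, with an adjusted p of 0.00676 by limma and a 95% interval from 0.52 to 1.30. It was the 1 member of the 10 that passed an adjusted p of 0.05 in that comparison, in which 5.93% of all 18193 genes passed. This comparison uses the same double arrays as the contrast that picked Ezh1, so it is not independent of the choice. The call was kept without oncogene replicate 4 and double replicate 4, at 0.85 ± 0.16 (SE) with an adjusted p of 0.00324 by limma. It was also kept within the 15 arrays of 1 run of consecutive accession numbers, which hold control, oncogene and double arrays, at 0.90 ± 0.22 (SE) with an adjusted p of 0.0358 by limma, and with high or low Xist as a covariate, at 0.92 ± 0.20 (SE) with an adjusted p of 0.0108 by limma.

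Oncogene against control is the 1 comparison here that shares no array with the contrast that picked Ezh1. There Ezh1 was 0.53 ± 0.20 (SE) higher, and it missed the threshold with an adjusted p of 0.203 by limma. Without oncogene replicate 4 and double replicate 4 it was 0.35 ± 0.18 (SE) higher, with an adjusted p of 0.262 by limma. Wt1-null against control gave -0.07 ± 0.20 (SE), with an adjusted p of 0.914 by limma, from the same control arrays. Double against oncogene gave 0.38 ± 0.19 (SE), with an adjusted p of 1 by limma. Oncogene against Wt1-null, which shares the Wt1-null arrays with the picking contrast, gave 0.59 ± 0.20 (SE) with an adjusted p of 0.425 by limma, where 1.33% of all genes did not overlap and 0.0165% were called. The difference that picked Ezh1, double minus Wt1-null, was 0.98 or 1.97-fold. These groups received the same virus but shared no run of consecutive accession numbers. With the run as a fixed block in the fit, this difference was 0.67. Between double and Wt1-null arrays 0.923% of all genes did not overlap, and 0.0824% were called in the main fit. That called share hung on single arrays, being 5.08% without Wt1-null replicate 2 and 0% without Wt1-null replicate 3. For oncogene against Wt1-null it was 1.06% without Wt1-null replicate 2. The interaction, which contains the control and so the change of virus, and which sets the oncogene difference without Wt1 against the one with Wt1, was 0.45 ± 0.28 (SE), and since it holds the picking contrast no test of it is read for Ezh1.

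The probe sets of Ezh1 did not all give the same picture. A second probe set above background read 5.99 to 6.34 in control, 5.78 to 6.63 in oncogene, 6.34 to 6.69 in Wt1-null and 6.24 to 7.09 in double arrays. On it every Wt1-null array was above every control array, in a comparison where 4.91% of all probe sets did not overlap, and double and Wt1-null arrays overlapped. It gave 0.44 ± 0.15 (SE) for double against control, with an adjusted p of 0.104 by limma over all 34945 probe sets, 0.33 for Wt1-null against control and 0.11 for double minus Wt1-null. The other 2 probe sets of Ezh1 lay at background, where a difference could not be read.

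Within the nearly identical arrays, Wt1-null replicate 2 read 8.06 and double replicate 2 read 8.50 for Ezh1. That difference of 0.44 is part of the contrast that picked Ezh1, with 1 array on each side, and is a description. Ezh2 differed there by -0.04 and Jarid2 by 0.01, and Suz12, with 0.25, was the member next to Ezh1 in size. Both arrays carry replicate number 2, the labels do not say what a number stands for, and how the arrays came to be alike was not tested.

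Ezh2 was lower in double arrays than in the other groups on average, but no comparison passed the test. Control arrays 1 to 5 read 10.05, 9.33, 9.56, 9.62 and 9.67, and oncogene arrays 1, 3, 4, 5 and 6 read 9.71, 9.45, 8.77, 10.28 and 10.03. Wt1-null arrays 1 to 5 read 9.35, 8.78, 10.03, 10.03 and 10.23, and the 7 double arrays ran from 7.63 to 9.88 with a median of 8.99. The groups overlapped in every comparison, and double replicate 4 was the lowest of all arrays. Double minus control was -0.77 ± 0.32 (SE), with a 95% interval from -1.44 to -0.10 before correction and an adjusted p of 0.174 by limma. Double minus oncogene was -0.78 ± 0.32 (SE) with an adjusted p of 1 by limma, and that comparison called 0% of all genes (0 of 18193, with 562 at an unadjusted p below 0.05). Oncogene minus control and Wt1-null minus control were 0.00 ± 0.35 (SE) and 0.04 ± 0.35 (SE), with adjusted p of 0.998 and 0.975 by limma. Double minus Wt1-null was -0.81, as a description.

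The balance of the methyltransferases on each array can be given as the Ezh1 value minus the Ezh2 value, whose size has no meaning across probe sets. Its shift between groups can be read only for the probe sets used. Double arrays averaged 0.10 ± 0.89 (SD, n = 7) on this balance, control arrays -1.58 ± 0.41 (SD, n = 5), oncogene arrays -1.06 ± 0.97 (SD, n = 5) and Wt1-null arrays -1.69 ± 0.64 (SD, n = 5). Double arrays ran from -0.70 to 1.71 and control arrays from -2.03 to -1.17, and oncogene replicate 4, at 0.54, was the highest array outside the double group. Because Ezh1 enters this balance, no test is given. The balance rests on the Ezh1 probe set with the highest mean level, and its shift depends on that choice. For double minus control that probe set gave 0.91, and the second above background gave 0.44. For double minus Wt1-null they gave 0.98 and 0.11.

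Ezh2 followed the proliferation genes across arrays more closely than Ezh1 did. Taking out the group means, the level of Ezh2 correlated with the mean of 21 proliferation genes (cyclins, mitotic kinases and replication factors) at r = 0.806 over 22 arrays, at 0.965 over the 20 arrays without oncogene replicate 4 and double replicate 4, and, on levels, at 0.808 within the 15 arrays of consecutive accessions. Ezh1 gave r = -0.159 and -0.035 over the 22 and the 20 arrays with group means out, and on levels -0.382 over 22 arrays and -0.353 within the 15. The other members lay between -0.201 and 0.432 over the 22 arrays, the highest being Cbx7. All values come from the same arrays and share their normalization, and the correlations are descriptions. The mean of the 21 genes ran from 10.52 to 11.11 in control, 10.55 to 11.57 in oncogene, 9.72 to 11.61 in Wt1-null and 9.33 to 11.20 in double arrays. In double against control 20 of the 21 were lower, with a median of -0.53 against -0.02 for all genes. None passed the test there by limma, with 4 at an unadjusted p below 0.05, as 20.1% of all genes were. In double against oncogene, where both groups received Cre, all 21 were lower, with a median of -0.75 against 0.01 for all genes. None passed the test there either by limma, but 11 had an unadjusted p below 0.05, beside 3.09% of all genes. The part of cell division in the Ezh2 difference was not tested.

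**Figure D2:**
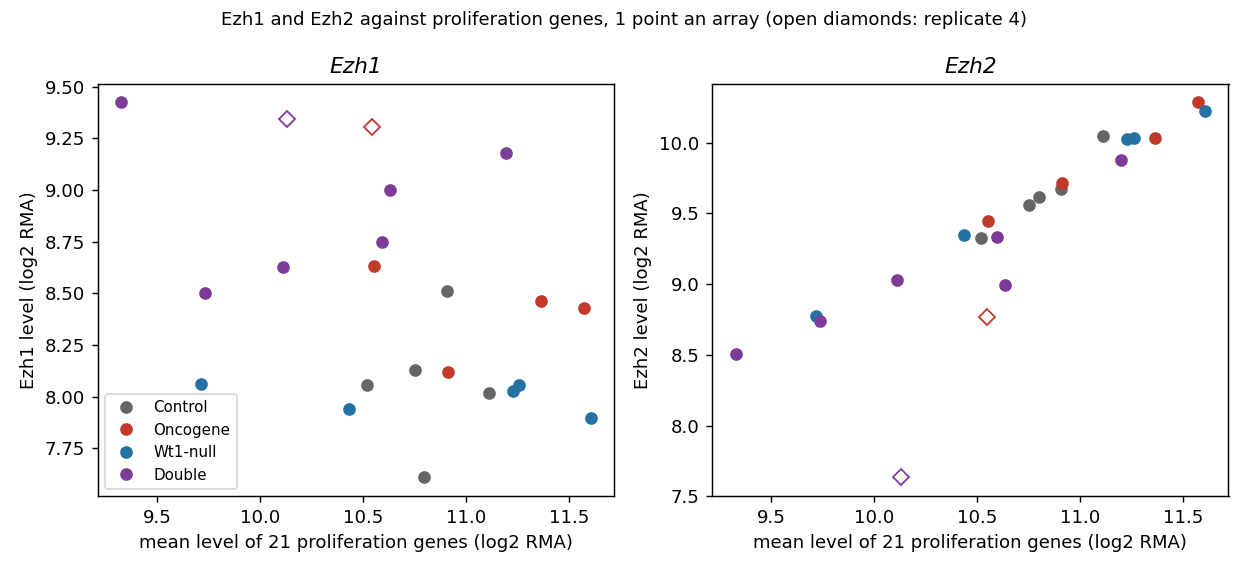
Level of Ezh1 (left) and Ezh2 (right) against the mean level of 21 proliferation genes (all log2 RMA values), 1 point an array, coloured by group, with oncogene replicate 4 and double replicate 4 as open diamonds. Ezh2 climbs with the proliferation genes over the arrays, with double replicate 4 at 7.63 below the rest. The 21 genes span 9.33 to 11.20 in double and 9.72 to 11.61 in Wt1-null arrays.

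The genes whose levels most resembled those of Ezh2 were found by Pearson correlation over the 22 arrays. They were Ect2 (r = 0.979), which acts in cell division, Usp1 (0.978), Ncapg (0.978), a condensin subunit, Shcbp1 (0.974) and Bub1 (0.973), a kinase of the spindle checkpoint. With the group means taken out they were Plk4 (0.983), which acts in centriole duplication, Usp1 (0.977), Rad51ap1 (0.977), Pcna (0.973), the sliding clamp of replication, and Clcc1 (0.972). For Ezh1 the closest were Pld2 (0.913), a phospholipase, Kbtbd4 (0.903), Tctn2 (0.882), Mnt (0.879), a partner of Max that represses Myc targets, and Nek9 (0.872). With the group means out, Pld2 (0.872), Itga3 (0.835), Kbtbd4 (0.835), Cyp27b1 (0.826, at background level) and Rundc1 (0.822) came first. These values fell to between 0.710 and 0.780 over the 20 arrays. No neighbour was shared by Ezh1 and Ezh2 in these lists of 5.

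Jarid2, the PRC2 partner, was about as much higher in all 3 groups that received Cre. Control arrays 1 to 5 read 7.90, 7.80, 7.71, 7.78 and 7.98. Oncogene arrays 1, 3, 4, 5 and 6 read 8.67, 8.33, 8.32, 8.10 and 8.40, all above every control array. Between these groups 5.94% of all genes did not overlap, and 2.04% were called. Wt1-null arrays 1 to 5 read 7.82, 8.79, 8.39, 8.25 and 8.47, and double arrays ran from 7.86 to 8.80 with a median of 8.35, so that 1 Wt1-null and 2 double arrays lay among the controls. The differences from control were 0.53 ± 0.18 (SE) in oncogene, 0.51 ± 0.18 (SE) in Wt1-null and 0.49 ± 0.16 (SE) in double arrays, with adjusted p of 0.132, 0.262 and 0.0818 by limma. These 3 comparisons share the 5 control arrays and the change of virus.

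None of the Jarid2 differences passed with all arrays. Without oncogene replicate 4 and double replicate 4 the difference of double from control was 0.57 ± 0.16 (SE) with an adjusted p of 0.0321 by limma, in a comparison that then called 10.1% of all genes, and those of oncogene and Wt1-null were not called there. The other 2 probe sets of Jarid2 were higher than control as well, by 0.23 and 0.78 in oncogene, 0.27 and 0.62 in Wt1-null and 0.33 and 0.69 in double arrays, none of them called.

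Eed and Suz12, the subunits that PRC2 needs for activity, gave no called difference. Eed read 10.45 to 10.95 in control, 10.61 to 10.99 in oncogene, 10.49 to 11.03 in Wt1-null and 9.88 to 10.95 in double arrays, and its differences from control were 0.20, 0.22 and 0.02 in that order. Suz12 read 9.39 to 10.29 in control, 8.40 to 10.39 in oncogene, 9.71 to 10.17 in Wt1-null and 7.43 to 9.997 in double arrays. Its differences from control were -0.18, 0.10 and -0.49, the last with an SE of 0.37 and an adjusted p of 0.514 by limma. The lowest oncogene array and the lowest double array of Suz12 were the 2 that stood apart. The 5 other probe sets of Suz12 gave -0.49 to -0.13 for double minus control. The -0.49 came from one near background, with a mean of 5.13 and only 11 arrays above background. Another near it had a mean of 5.20 and 16 arrays above background.

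Among the PRC1 genes, Ring1, 1 of the pair of ubiquitin ligases, was lower than control in all 3 Cre groups on average. Control arrays 1 to 5 read 8.89, 8.71, 8.90, 8.74 and 8.95, and Wt1-null arrays read 8.42, 8.28, 8.20, 8.07 and 8.22, all below every control array. Between these groups 5.68% of all genes did not overlap, and 0.104% were called. Oncogene arrays 1, 3, 4, 5 and 6 read 8.42, 8.39, 8.93, 8.29 and 8.42, so that only replicate 4 lay among the controls. The 7 double arrays ran from 8.08 to 9.22 with a median of 8.42, with replicates 1 and 4 above every control array and the other 5 below them all. The differences from control were -0.60 ± 0.17 (SE) in Wt1-null, -0.35 ± 0.17 (SE) in oncogene and -0.30 ± 0.16 (SE) in double arrays, with adjusted p of 0.194, 0.354 and 0.316 by limma.

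Ring1 passed the test once oncogene replicate 4 and double replicate 4 were left out. Its difference in Wt1-null arrays was then -0.60 ± 0.13 (SE) with an adjusted p of 0.0451 by limma, in a comparison that called 0.434% of all genes. That in double arrays was -0.41 ± 0.12 (SE) with an adjusted p of 0.04 by limma, in a comparison that called 10.1% of all genes. The mean of the Wt1-null group does not change when those arrays are left out, since it holds neither, and the SE of the fit was 0.17 with them and 0.13 without them. Ring1 has 1 probe set on the array, so no second value was at hand. Its interaction, 0.65 ± 0.24 (SE), had an adjusted p of 0.579 by limma.

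Rnf2, the other ubiquitin ligase, and Bmi1, its partner, were near control in every group mean over all arrays. Control arrays averaged 10.80 ± 0.18 (SD, n = 5) for Bmi1, oncogene arrays 10.73 ± 0.40 (SD, n = 5), Wt1-null arrays 10.90 ± 0.18 (SD, n = 5) and double arrays 10.69 ± 0.79 (SD, n = 7). For Rnf2 the same groups averaged 10.56 ± 0.13 (SD, n = 5), 10.72 ± 0.38 (SD, n = 5), 10.66 ± 0.23 (SD, n = 5) and 10.61 ± 0.68 (SD, n = 7). The 95% intervals of double minus control were -0.70 to 0.47 for Bmi1 and -0.48 to 0.56 for Rnf2, wide enough to hold a change of 0.44, the size of the Ezh1 difference on its second probe set, in either direction. Over the other 6 double arrays, without replicate 4, the SD was 0.15 for Bmi1 and 0.23 for Rnf2. Without oncogene replicate 4 and double replicate 4, Rnf2 was 0.31 higher than control in oncogene and 0.29 in double arrays. Neither was called, with adjusted p of 0.187 and 0.137 by limma. Bmi1 was then 0.07 and 0.18 higher, not called. The second probe set of Bmi1 gave 0.08 for double minus control, and the 4 other probe sets of Rnf2 gave -0.21 to 0.02.

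The chromobox genes Cbx7 and Cbx8 gave differences from control between -0.27 and 0.05. Cbx7 read 5.94 to 6.48 over all 22 arrays, and its differences from control were 0.05 in oncogene, -0.15 in Wt1-null and -0.06 in double arrays, with a 95% interval of -0.24 to 0.12 for the last. Cbx8 read 6.76 to 7.69 over all arrays, with differences of -0.04, -0.27 and -0.02 and a 95% interval of -0.32 to 0.29 for the last. Neither was called. The second probe set above background gave -0.15 for Cbx7 and 0.01 for Cbx8 in double minus control. Both lay near background, with means of 5.30 and 5.09 and with 20 and 13 of the 22 arrays above it.

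**Figure D3:**
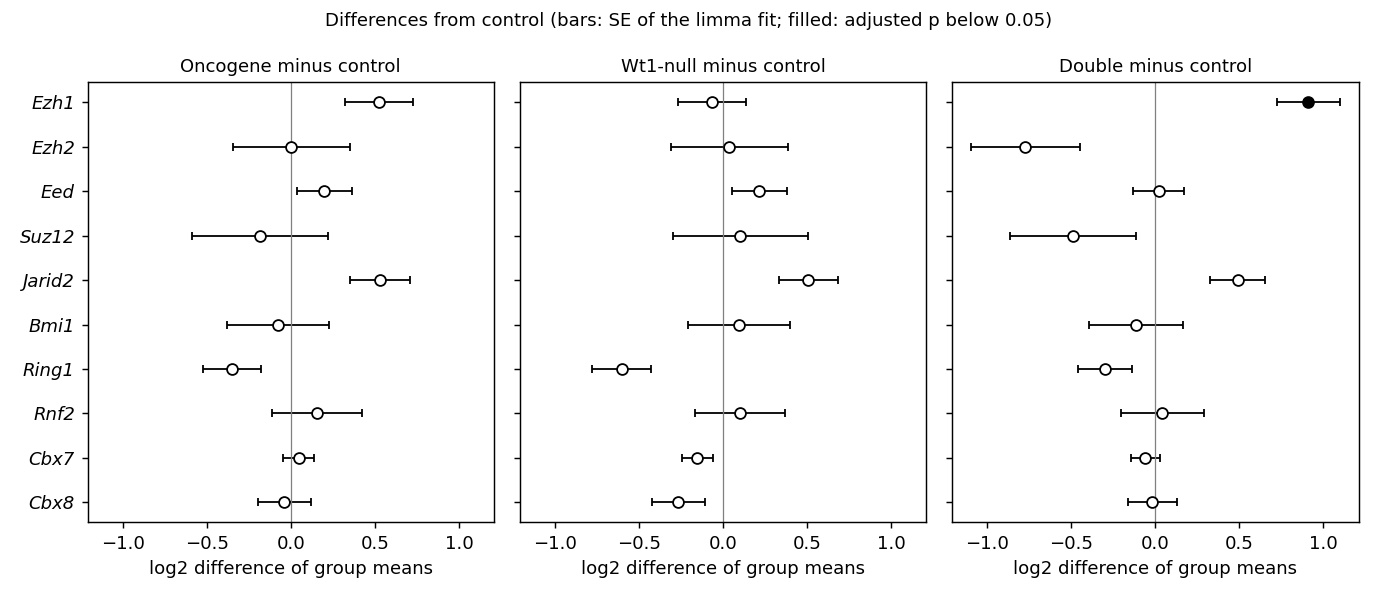
Log2 difference of group means from control (horizontal axis) for the 10 Polycomb genes in oncogene, Wt1-null and double arrays, with the SE of the limma fit as bars; filled points have an adjusted p below 0.05. The 1 filled point is Ezh1 in double arrays at 0.91, and Jarid2 lies at 0.49 to 0.53 in all 3 panels, which share the control arrays.

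Counted together, none of the 10 members was called in oncogene against control, where 2.04% of all genes were, and none in Wt1-null against control, where 0.104% were. None was called in double against oncogene, in oncogene against Wt1-null or in the interaction, where 0.011% of all genes were called. At an unadjusted p below 0.05 by limma the members numbered 2, 2, 1, 2 and 2 in these 5 comparisons, in the order given, beside 15%, 12.7%, 3.09%, 7.14% and 8.55% of all genes. Their median differences from control were 0.03 in oncogene, 0.07 in Wt1-null and -0.04 in double arrays, beside -0.03, -0.05 and -0.02 over all genes. Without oncogene replicate 4 and double replicate 4 the members called were 0 in oncogene against control, where 3.62% of all genes passed. In Wt1-null against control 1 member was called, where 0.434% of all genes passed. In double against control 3 were called, where 10.1% of all genes passed. Double against Wt1-null then called 0.132% of all genes. With counts so small, the share of the members cannot be set apart from that of all genes.

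Oncogene replicate 4 and double replicate 4 differed from the rest of their groups in the same Polycomb genes. Set against the mean of the other 6 double arrays, double replicate 4 gave -2.29 for Suz12 (7.43, the others 8.97 or more), -2.05 for Bmi1 (8.94, the others 10.81 or more), -1.70 for Rnf2 (9.15, the others 10.64 or more) and -1.45 for Ezh2 (7.63, the others 8.51 or more). Eed and Jarid2 gave -0.89 and -0.54, while Ring1 gave 0.79, Cbx8 0.50, Ezh1 0.43 and Cbx7 0.34. Set against the other 4 oncogene arrays, oncogene replicate 4 gave -1.62 for Suz12, -1.10 for Ezh2, -0.77 for Rnf2 and -0.75 for Bmi1, with 0.89 for Ezh1 and 0.55 for Ring1. Among all genes the Suz12 deviations lay at the 1.94th percentile in double replicate 4 and at the 2.38th in oncogene replicate 4. The sign was the same in both arrays for all 10 genes, but Jarid2 and Cbx7 gave only -0.06 and 0.06 in oncogene replicate 4. The share of all genes with the same sign in both arrays was not counted, so this is no trait of the members. These arrays also had the largest 3′ to 5′ differences of pyruvate carboxylase, as given above, and the part of RNA quality in these levels was not tested.

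**Figure D4:**
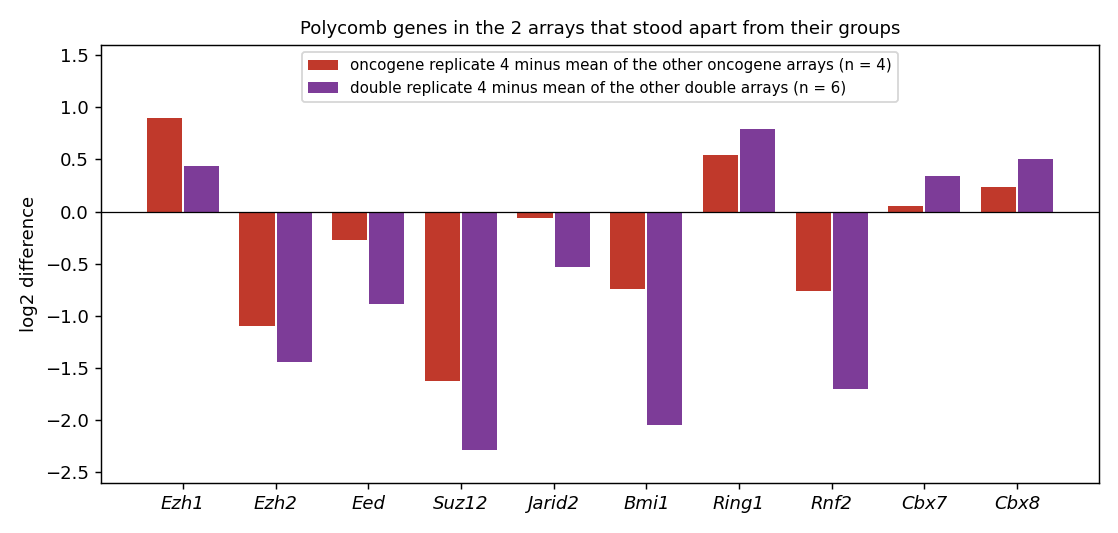
Log2 difference of oncogene replicate 4 from the mean of the other 4 oncogene arrays, and of double replicate 4 from the mean of the other 6 double arrays (vertical axis), for the 10 Polycomb genes. Suz12, Bmi1, Rnf2 and Ezh2 are lower and Ezh1 and Ring1 higher in both, with Suz12 at -1.62 and -2.29.

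Most correlations among the members were weaker without these arrays. With group means taken out, Bmi1 and Rnf2 correlated at r = 0.948 over 22 arrays and at 0.682 over 20, Suz12 and Bmi1 at 0.866 and 0.360, and Suz12 and Rnf2 at 0.845 and 0.251. Suz12 and Ring1 ran opposite, at -0.849 and -0.640. Eed and Suz12, which sit in the same complex, correlated at 0.813 and 0.547. Ezh1 and Ezh2 gave -0.400 over 22 and -0.033 over 20 arrays, so that across arrays of a group a low Ezh2 did not go with a high Ezh1 once those arrays were out. These are descriptions over arrays that share probe design and normalization.

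Other genes of the pathway were read from lists that were chosen with earlier results known. Of 8 PRC2 partners (such as Rbbp4, Aebp2 and Mtf2) none was called in any comparison, and their median differences from control were 0.22 for oncogene, 0.17 for Wt1-null and 0.03 for double arrays. By limma 1, 0 and 1 of them had an unadjusted p below 0.05 in these 3 comparisons, as had 15%, 12.7% and 20.1% of all genes. Of 16 measured PRC1 genes outside the 10, Cbx6 alone was called, in oncogene and in double against control, where 2.04% and 5.93% of all genes were. For this chromobox gene, control arrays averaged 10.75 ± 0.28 (SD, n = 5), Wt1-null arrays 10.76 ± 0.33 (SD, n = 5), oncogene arrays 11.55 ± 0.21 (SD, n = 5) and double arrays 11.35 ± 0.33 (SD, n = 7). It rose by 0.80 ± 0.18 (SE) in oncogene and by 0.60 ± 0.17 (SE) in double arrays against control, with adjusted p of 0.0254 and 0.0402 by limma. Its second probe set gave 0.78 and 0.63, and both calls were kept without the arrays that stood apart, at 0.74 and 0.60. Wt1-null minus control was 0.01. The virus differed from control in all 3 groups, and its part was not tested.

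Among 13 genes of histone H3 lysine 27 demethylation and the trithorax group, which oppose Polycomb, Kmt2d and Kdm6b were called. Oncogene and double against control called 2.04% and 5.93% of all genes. At an unadjusted p below 0.05 by limma the 13 genes numbered 6, 3 and 7 in oncogene, in Wt1-null and in double against control. Of all genes 15%, 12.7% and 20.1% did. In double against oncogene 0 of the 13 did, beside 3.09% of all genes. The first 3 comparisons share the control arrays and the change of virus, and no list test was made. Kmt2d, a methyltransferase of histone H3 lysine 4, rose by 1.44 ± 0.37 (SE) in oncogene and 1.24 ± 0.34 (SE) in double arrays against control, with adjusted p of 0.0465 and 0.0343 by limma, but its second probe set gave -0.04 and 0.03. Kdm6b, a demethylase of the PRC2 mark, rose by 1.20 ± 0.29 (SE) in double arrays with an adjusted p of 0.0165 by limma. Its difference was 1.11 in oncogene and 1.20 in Wt1-null arrays, not called, and its 2 other probe sets gave 0.10 and 0.33 in double arrays. Without the arrays that stood apart Arid1a was called in addition in both comparisons, at 0.86 and 0.63, and Kmt2b in oncogene against control, at 0.68. Oncogene and double against control then called 3.62% and 10.1% of all genes. Of 8 genes of the histone H2A deubiquitinase PR-DUB and of the DNA-binding complex PhoRC none was called with all arrays by limma. At an unadjusted p below 0.05 by limma they numbered 1, 0 and 2 in oncogene, in Wt1-null and in double against control. That share was 15%, 12.7% and 20.1% of all genes. Mbtd1 and Sfmbt2 were called in double against control without the 2 arrays that stood apart, at 0.62 and 0.83.

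Of 19 genes known to be held silent by Polycomb in many tissues, 2 were called, both in double against control, where 5.93% of all genes were. Gata6, an endoderm factor, rose by 1.04 ± 0.29 (SE) with an adjusted p of 0.0353 by limma, from 5.56 to 6.60, and its 2 other probe sets gave 0.25 and 0.08. Cdkn1c, a cyclin-dependent kinase inhibitor, rose by 0.99 ± 0.28 (SE) with an adjusted p of 0.036 by limma. Both calls were kept without the arrays that stood apart, at 0.87 and 0.91, where 10.1% of all genes were called. Gata6 was also 0.585 higher than control in oncogene and 0.496 in Wt1-null arrays. Cdkn1c was 0.947 and 0.676 higher in these groups, and none of these differences was called. The median of the 19 was -0.04, near that of all genes. Cdkn2a, the Polycomb target of the background above and chosen here after its values were seen, was not called. It averaged 9.05 ± 0.81 (SD, n = 7) in double arrays, against 7.63 ± 0.13 (SD, n = 5) for control, 8.34 ± 1.01 (SD, n = 5) for oncogene and 8.05 ± 1.16 (SD, n = 5) for Wt1-null arrays.

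Markers of other cell types were read in the same way. Double against control, where Ezh1 was called, called 5.93% of all genes. There the mean of 8 macrophage and leukocyte markers ran from 5.96 to 6.41 in double and 5.74 to 6.10 in control arrays. Ptprc and Cd52 lay at background, and 1 of 8 was called (Cd68, 0.80). The mean of 5 endothelial markers ran from 5.39 to 5.91 and 5.23 to 5.50, with Pecam1 and Emcn at background, and 1 of 5 was called (Tek, 1.29). The mean of 6 epithelial markers ran from 6.10 to 7.33 and 6.13 to 6.67, with Cdh1 and Esrp1 at background. By limma 0 of 6 was called, with 1 at an unadjusted p below 0.05, as 20.1% of all genes were. Of 10 fibroblast markers Pdgfra alone was called, at 1.97 in oncogene and 1.78 in double arrays, where 2.04% and 5.93% of all genes were. Of 5 muscle and 5 neural markers none was called against control by limma, and 0 had an unadjusted p below 0.05. Their part in the Ezh1 difference was not tested, and in such bulk RNA fewer cells of a type and less RNA per cell cannot be told apart.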

How the data were processed

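The deposited values are log2 RMA summaries that the authors made in Affymetrix Expression Console, as the submitters' processing notes and series text state. The version and any genome build were not given in the sources used here. RMA sets all arrays to 1 common distribution and compresses differences near background. No scanner files, detection calls or scan dates were used, so precision is set by how many arrays there are. The series' design names 6 oncogene arrays, and 5 were analysed here; the oncogene is not reported here by name.

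Of 45101 probe sets, 34945 were assigned to 1 gene, 932 to several and 9160 to none, and 64 were controls. By gene ID 34741 matched RefSeq for GRCm38.p6, which also gave the promoters. The probe set with the highest mean level stood for its gene. Group means of 22 arrays were fitted with limma 3.58.1 in R 4.3.3 (lmFit, eBayes), with Benjamini-Hochberg adjustment over 18193 genes and a threshold of 0.05. Intervals are 95% and unadjusted. The fit was tested on simulated data. The members and lists were chosen with earlier results of these data known. The genes named were the 10 members, up to 4 called genes of each list in a comparison, and the 5 closest to Ezh1 and to Ezh2 by Pearson correlation, with and without group means; marker genes of cell types and list examples are named besides. Runs of consecutive accession numbers (3) were taken as possible batches. Alternatives covered the choice of probe set, filter, normalization, variance model, array weights, blocks and arrays left out. Leaving out 3 arrays together, the list counts without 2 arrays and the Xist covariate were added after seeing the data.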

Additional observations from a re-analysis of the deposited data

Results flagged for a closer look

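Among 40 sets of values (10 genes in 4 groups), 7 held an array set off from the others of its group by a gap wide for the number of arrays, of which chance gives about 1 in 20. Of these, 4 were the lowest value of double replicate 4, which was 9.88 in Eed (next 10.54), 7.43 in Suz12 (next 8.97), 8.94 in Bmi1 (next 10.81) and 9.15 in Rnf2 (next 10.64). Oncogene replicate 4 was highest in Ring1 at 8.93 (next 8.42). Wt1-null replicate 2, the array nearly identical to double replicate 2, was highest in Rnf2 at 11.07 (next 10.59). Control replicate 1 was highest in Cbx8 at 7.51 (next 7.24).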

How the results depend on the processing

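The call of Ezh1 in double against control was kept in all 38 alternatives that gave it a value, from 0.40 to 1.02 with adjusted p of 0.000287 to 0.0358 by limma, the lowest from averaging its probe sets. Not all of these could change it. Leaving out an oncogene or a Wt1-null array cannot move this difference, which stayed at 0.91. The alternative with every probe set took the one with the smallest p, which was the same one. The second probe set of Ezh1 was not called (0.44, adjusted p = 0.104 by limma). In double against Wt1-null, which picked it and where no test is read, its difference of 0.98 was 0.37 when its probe sets were averaged, and in the other alternatives it stayed within the SD of the double arrays. With the replicate block that difference was 1.03, and Ezh1 kept its call in double against control (0.96, adjusted p = 0.0152). Deviations of same-numbered arrays of different groups correlated at a median of 0.038, against -0.011 for other numbers. Same-numbered pairs ran from -0.471 to 0.773, so the numbers were not used to pair the arrays, although the closest arrays of different groups share one. Leaving out each array in turn gave 0.90 to 1.06 for Ezh1 in double against Wt1-null and 1 to 2 members called in double against control, the 2 being Ezh1 and Jarid2 without double replicate 1 or double replicate 4, where 9.5% and 7.64% of all genes were called. Without oncogene replicate 4 and double replicate 4 the count was 1 in Wt1-null against control, where 0.434% of all genes were called. In double against control the count was then 3, where 10.1% of all genes were called. It was 3 there too with Wt1-null replicate 2 left out as well, where 12.3% of all genes were called. A fit of only the groups compared called 1 in oncogene against control (Jarid2) and 1 in Wt1-null against control (Ring1), where it called 4.23% and 3.29% of all genes. Array weights called 4 in the comparison of oncogene arrays with control, 3 in that of Wt1-null arrays, 3 in that of double arrays and 3 in the interaction, where 24.3%, 33.1%, 33.2% and 15.1% of all genes were called. Of 2234 member values under alternatives in the other comparisons, 155 had the opposite sign to the main value, and 0 of these were called in either. The causes of these changes were not tested. A fit within the accession set of 15 arrays gave no value for comparisons with Wt1-null, which that set does not hold. With 5 to 7 arrays a group, and levels of the Ezh1, Eed and Cbx7 probe sets at background unreadable, small differences could not be told from the spread.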
